A study of Mus musculus with 2 samples.

Results

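Cycling stromal cells of the mouse fetal ovary were examined in single-cell transcriptomes of dissociated E15.5 ovaries. They are collagen-rich mesenchymal cells that carried transcripts of the cell division genes Top2a, Mki67 and Cdk1 at the time of capture. The rule that chose them started from 25395 kept cells in both libraries, of which 1671 were stromal and 469 were cycling stromal cells. The wild-type (WT) library held 160 of them and the glucocorticoid receptor knockout (KO) library held 309. They were set against the 425 WT and 777 KO stromal cells that fell under the limit of the same rule, called non-cycling here.

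The series asks whether the glucocorticoid receptor (GR), the steroid receptor encoded by Nr3c1, acts in the fetal ovary. Ovaries of 4 WT embryos were pooled into 1 library, and ovaries of 2 KO embryos into the other, so each group is 1 sample and no difference between genotypes has a replicate check. Dissociated cells were sorted on the fluorescence of the germ cell transgene Tg(Pou5f1-EGFP)2Mnn, which both groups carried, and GFP-positive germ cells were mixed with GFP-negative somatic cells at 60 to 40 before droplet capture. The KO embryos were homozygous for a deletion of exon 3 of Nr3c1, made from the floxed allele Nr3c1tm1.1Jda with a β-actin cre and passed through the germline, so every cell type of these embryos carried it. The WT embryos were labelled wild type for GR.

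Cells were kept at 3000 or more unique molecular identifiers (UMIs, each 1 captured transcript) and under 10% mitochondrial UMIs. All levels below are UMIs per 10000. Somatic cells had a summed level under 10 for 6 germ cell genes (Dazl, Ddx4, Smc1b, Sycp1, Sycp3 and Stra8). Stromal cells were somatic cells with Col1a1, Col1a2 and Col3a1 at 15 or more in sum and at least 1 UMI of Tcf21 or Pdgfra, and with low sums for epithelial (Krt19, Krt7 and Upk3b, under 5), perivascular (Rgs5, Kcnj8 and Notch3, under 3) and endothelial genes (Cdh5, Egfl7 and Cldn5, under 3). A cycling cell had Top2a, Mki67 and Cdk1 at 2 or more in sum. Because the cells were selected on their own transcripts, every contrast of cycling with non-cycling cells is a description of the selected cells and carries no test.

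A dividing cell copies its DNA in S phase and separates the copies in M phase. Retinoblastoma-family proteins hold E2F transcription factors back until cyclin-dependent kinases release them, and E2F factors then switch on genes of the replication fork and of nucleotide supply. Genes of mitosis are switched on later, by the MuvB complex with MYBL2 and FOXM1, and are held silent in resting cells by the same MuvB core within the DREAM complex. MuvB binds the cell cycle homology region, with core letters TTTGAA or TTCGAA, often near CCAAT boxes bound by NF-Y. Histone transcripts of the replication-dependent class are made in S phase and mostly lack a poly(A) tail, so capture by oligo(dT) samples them incompletely. The stroma of the fetal ovary lies between the germ cell nests and supplies matrix, fibroblasts and precursors of the steroidogenic theca cells.

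The sequences just before the start sites of 6 genes among the 15 with the highest ratio of cycling to non-cycling stroma are printed, since promoter elements of this kind are what S phase and mitotic genes are known to share. They come from RefSeq promoter windows on GRCm38.p6, and each covers the 150 bases before the start, read in the direction of the gene. Capitals mark every match on either strand to the box CCAAT, to the homology region written TTTGAA or in its other form as TTCGAA, and to the E2F-type letters TTTGGCGC or also TTTCCCGC. The reverse forms of the box and of the first homology region are ATTGG and, for the latter, TTCAAA, while TTCGAA reads the same on both strands. Matches to different motifs overlapped in 0 places. The windows are Depdc1a at chr3:159495283-159495432 (plus strand), Prc1 at chr7:80294326-80294475 (plus), Ube2c at chr2:164769779-164769928 (plus), Hist1h3c, listed by RefSeq as H3c3, at chr13:23745522-23745671 (minus), Aspm at chr1:139454623-139454772 (plus) and Hmmr at chr11:40733438-40733587 (minus).
Depdc1a: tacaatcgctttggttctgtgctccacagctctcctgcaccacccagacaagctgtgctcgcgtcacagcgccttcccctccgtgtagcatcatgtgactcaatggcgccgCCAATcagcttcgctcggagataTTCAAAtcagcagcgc
Prc1: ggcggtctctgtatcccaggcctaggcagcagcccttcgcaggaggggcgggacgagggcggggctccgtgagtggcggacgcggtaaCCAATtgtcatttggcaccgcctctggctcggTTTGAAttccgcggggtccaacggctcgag
Ube2c: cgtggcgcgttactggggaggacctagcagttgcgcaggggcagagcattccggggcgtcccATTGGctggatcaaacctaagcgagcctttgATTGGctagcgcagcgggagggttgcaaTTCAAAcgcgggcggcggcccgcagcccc
Hist1h3c: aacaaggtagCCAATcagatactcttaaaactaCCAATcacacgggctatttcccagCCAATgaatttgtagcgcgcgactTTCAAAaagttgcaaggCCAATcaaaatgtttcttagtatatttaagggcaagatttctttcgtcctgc
Aspm: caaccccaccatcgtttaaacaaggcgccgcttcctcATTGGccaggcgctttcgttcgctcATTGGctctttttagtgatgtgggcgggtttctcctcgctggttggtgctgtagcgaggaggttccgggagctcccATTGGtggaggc
Hmmr: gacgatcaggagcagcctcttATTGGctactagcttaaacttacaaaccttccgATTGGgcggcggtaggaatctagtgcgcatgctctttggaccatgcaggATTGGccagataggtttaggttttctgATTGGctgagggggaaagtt

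In Depdc1a the CCAAT began 39 bases before the start and the reversed TTTGAA 16 bases before it, a spacing of 23 bases. The spacing was 24 bases in Hist1h3c, 28 in Ube2c and 32 in the window of Prc1 shown. Aspm and Hmmr held reversed CCAAT matches and no TTTGAA. Hist1h2ae and Hist1h2an, whose windows are not printed, also held CCAAT and TTTGAA. Nusap1, Casc5 and Mxd3 held none of these letters in 250 bases, and Aurkb, Fam64a, Hist1h2ap and Ccna2 had no entry in the table. A match describes letters and is not shown to be a site that a factor used.

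Nr3c1, the deleted gene, was read first. In cycling stroma 73 Nr3c1 UMIs were counted in WT and 32 in KO, levels of 0.388 and 0.139. In non-cycling stroma the counts were 166 and 52, levels of 0.435 and 0.113. The log2 ratio of KO over WT was -1.48 in cycling cells (95% interval -2.13 to -0.86) and -1.94 in non-cycling cells (-2.42 to -1.48), in the direction of the labels. Reads of this chemistry come from the 3-prime end, outside exon 3, so they count the transcripts that were left and do not show the deletion itself. Here and below, intervals for ratios, levels and shares are exact and measure counting error alone, since UMIs and cells of 1 library share their animals and capture.

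The WT library was deeper. Kept cells numbered 9512 in WT and 15883 in KO, with 168483330 and 186117981 UMIs over all barcodes. Cycling stromal cells had a median of 11843 UMIs in WT and 7269 in KO, and non-cycling ones 8813 and 5787. Cycling cells thus held 1.34 times as many UMIs as their non-cycling neighbours in WT and 1.26 times in KO, and 1.22 and 1.21 times as many detected genes. Mitochondrial shares were alike, 4.40% in WT and 3.76% in KO cycling cells and 4.59% and 3.72% in non-cycling cells. The libraries shared 75 barcode sequences, 29 among kept cells and 0 among cycling stroma. A doublet caller (Scrublet) marked 0 of the 160 WT members and 5 of the 309 KO members.

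The label was checked against stromal and other markers. All 160 WT members and 304 of 309 KO members had a Col1a1 UMI, and Tcf21, a transcription factor of mesenchymal progenitors, was detected in 93.1% and 81.9% of them; both genes were part of the rule. Of the stromal identity genes that the rule did not use, Nr2f2 had levels of 2.81 in WT and 2.79 in KO members, and Maf 2.35 and 2.29. Transcripts of other cell types were present at low levels. The rule capped germ cell, epithelial, perivascular and endothelial genes that are also in these lists. Low sums for those 4 types were therefore in part set by the choice of cells and do not check the label. Sums over 13 germ cell genes were 2.74 in WT members and 3.41 in KO members (3.03 and 4.17 in non-cycling cells), with 0 genes at 0. Sums over 9 pregranulosa genes were 5.14 and 6.24 (6.94 and 6.71), mostly Wnt4 and Kctd14, while Foxl2, their defining factor, had 1 UMI in the members of each library. Epithelial sums were 1.26 and 1.90, perivascular sums 0.425 and 0.365, endothelial sums 0.388 and 0.413 and immune sums 0.0106 and 0.00869, with 6 of 8 immune genes at 0 in each library. Erythroid sums were 0.478 and 0.995 in members, against 0.932 and 8.50 in non-cycling cells, where 1 KO cell called a doublet held 1754 of 1945 Hba-a1 UMIs. The part of these transcripts in the results was not tested.

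Cycling cells made up 27.4% of WT stroma (interval 23.8 to 31.2) and 28.5% of KO stroma (25.8 to 31.2). The difference, KO minus WT, was 1.10 percentage points with an interval from -3.55 to 5.64, so neither library held a larger share beyond counting error. After each cell was thinned to 3000 UMIs, which left out 0 cells, 33.2% of WT and 32.0% of KO stromal cells had at least 1 UMI of the 3 genes. Among members with at least 2 UMIs of the 3 genes, a limit added after the data were seen, the order turned, at 27% of WT and 23.7% of KO stroma, a difference of -3.34 points (-7.89 to 1.09). With 5 other mitotic genes in place of the rule's own, the shares were 21.2% and 23.6%, a difference of 2.38 points (-1.95 to 6.56). The ovarian epithelium, selected on its keratins and Upk3b, had rule shares of 21% in WT and 23.3% in KO at higher depth (median 16547 and 10888 UMIs). Pregranulosa cells had 4.30% and 6.36% (median 12356 and 8251 UMIs), and their intervals did not overlap those of stroma. With every cell thinned to 3000 UMIs, the shares with at least 1 UMI were 29.0% and 29.5% in epithelium and 10.9% and 11.8% in pregranulosa cells. Germ cells, which had Top2a levels of 5.22 and 5.10, reached rule shares of 90.2% and 88.8%. The paper staged germ cell nuclei of this age in meiotic prophase I, so passing the limit does not mark them as dividing.

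**Figure D1:**
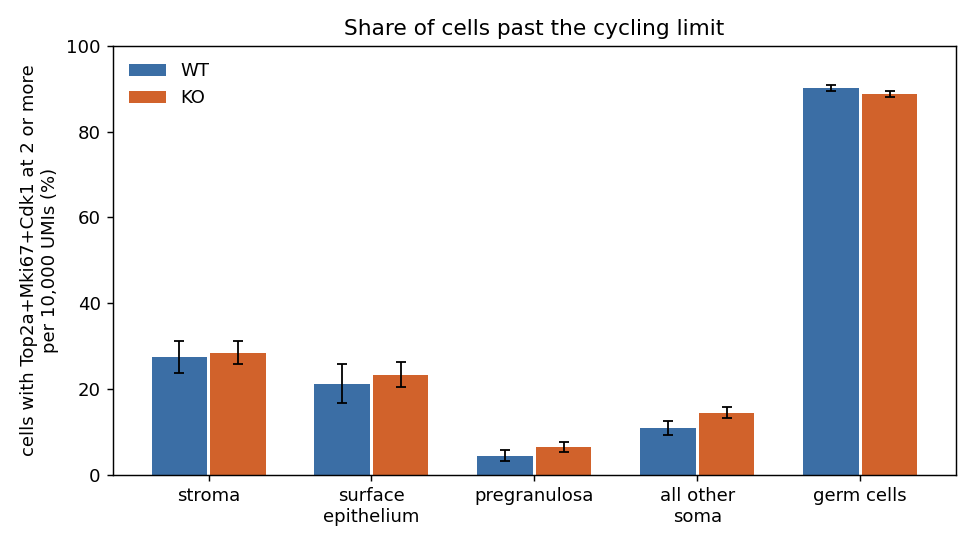
Share of cells past the cycling limit in each cell class (percent, vertical axis), with WT and KO side by side and exact 95% intervals for counting error. Stroma stands at 27.4% in WT and 28.5% in KO, close to each other and above pregranulosa cells at 4.30% and 6.36%. Germ cells past the limit are not thereby dividing, since the paper staged them in meiotic prophase I.

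The genes of the rule describe how firmly each cell was chosen. Top2a, which encodes the enzyme that untangles DNA strands in mitosis, had a level of 8.10 in WT and 7.73 in KO members, against 0.128 and 0.146 in non-cycling cells. Mki67, the proliferation antigen that coats mitotic chromosomes, had 3.35 and 3.54, against 0.0602 and 0.0240. Cdk1, the kinase that drives entry into mitosis, had 3.15 and 3.07, against 0.257 and 0.159. All 3 were detected together in 96 WT members (60%) and 151 KO members (48.9%). Germ cells were most of the captured cells, and stromal cells held UMIs of the 6 germ cell genes at 1.88% to 2.64% of the germ cell level, although the rule itself capped those genes. That share of the germ cell level would be 0.110 in WT and 0.135 in KO for Top2a in non-cycling cells, 0.0312 and 0.0392 for Mki67 and 0.0103 and 0.0118 for Cdk1. The measured Cdk1 levels there, 0.257 and 0.159, were above this and those of Top2a near it. Those of Mki67 were above it in WT, at 0.0602, and below it in KO, at 0.0240. The part of free RNA was not tested.

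Membership rested on 1 UMI in 2 WT cells (1.25%) and in 52 KO cells (16.8%), which can happen only in cells with under 5000 UMIs. Just outside the limit, at a rule sum of 1 to under 2, lay 103 WT and 145 KO cells. Just inside, at 2 to under 3, lay 32 and 74 cells, the latter with a median of 4763.5 UMIs. Summed over 63 mitotic genes, the median level per cell was 7.82 in WT and 8.16 in KO just outside and 8.67 and 8.98 just inside. It was 27.9 and 28.8 at a rule sum of 3 to under 10, and 97.8 and 94.0 at 10 or more. Cells just inside the limit therefore resembled their non-cycling neighbours in mitotic transcripts, and the label of cycling cells is carried by those above a rule sum of 3, which were 128 of 160 in WT and 235 of 309 in KO.

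Over all members, the mitotic sum had a median of 63.8 in WT and 48.9 in KO, against 7.26 and 7.18 in non-cycling cells. The sum over 64 replication genes had medians of 101 and 91.5 against 27.6 in each library. The sum over 67 histone genes named Hist had medians of 12 and 9.83 against 2.80 and 2.78. Members varied widely: the middle 50% of WT members spanned 15.8 to 109 in the mitotic sum and 3.61 to 75.4 in the histone sum. In the mitotic sum 44 WT members (27.5%) and 89 KO members (28.8%) lay below the 95th percentile of non-cycling cells, and in the replication sum 52 (32.5%) and 103 (33.3%) did. Conversely, 1 WT and 2 KO non-cycling cells reached the members' median of the mitotic sum, and 4 and 14 that of the replication sum.

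The histone sum spread over a low and a high range. At a limit of 20, chosen after the values were seen, 76 WT members (47.5%) and 132 KO members (42.7%) were high, and 15 and 44 members lay between 10 and 40. High cells were deeper, with medians of 12838 and 8262 UMIs against 9859 and 5977. They were also high in the replication sum, 115 and 114 against 62.5 and 63.5, and in the mitotic sum, 89.5 and 86.2 against 17.4 and 17.2. Among the cells of low histone sum, 21 in WT and 37 in KO had a mitotic sum of 50 or more, and 63 and 140 did not.

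**Figure D2:**
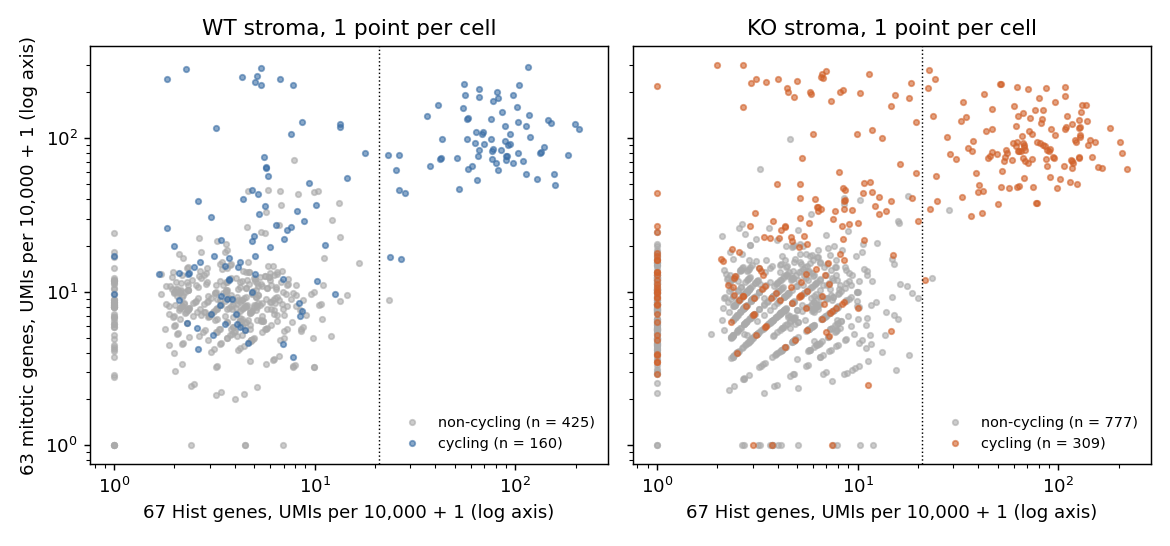
Each point is 1 stromal cell, placed by its summed level of 67 histone genes (horizontal) and of 63 mitotic genes (vertical), as UMIs per 10000 plus 1 on log axes, with members coloured, non-cycling cells grey, 1 panel per library and a dotted line at a histone sum of 20. In WT 44 of 160 members and in KO 89 of 309 lie below the 95th percentile of non-cycling cells on the vertical axis.

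Single genes separated along the same axis. Hist1h1b, a linker histone, was higher in the high cells by 4.96 on the log2 scale in WT and 4.53 in KO, largely by the choice of cells. Top2a was higher by 1.62 and 1.6, and Rrm2, a subunit of ribonucleotide reductase, by 1.05 and 0.96. Ung, a uracil-DNA glycosylase, went the other way, with log2 ratios of -2.31 and -1.39, as did Ccnd2, a G1 cyclin, at -0.57 and -1.08. Genes of late G2 and mitosis differed among themselves. Nusap1 was higher in the high cells at 1.59 and 1.30, Prc1 at 1.35 and 1.02, Plk1, a mitotic kinase, at 1.09 and 0.81 and Aurka, a spindle pole kinase, at 1.05 and 0.70. Cenpf and Ccnb1 were near 0, at 0.06 and -0.08 and at 0.11 and -0.07, and Cdc20, an activator of the anaphase-promoting complex, had 0.09 and -0.61. These genes were chosen after their values were seen. Members thus included cells with all of these transcripts, cells with replication and mitotic but few histone transcripts, and cells low in all 3 sums. Others were high in the replication sum alone. A WT member had sums of 106 in replication, 11.2 in mitotic and 5.95 in histone genes, and a KO member 89.9, 7.37 and 7.37. The 95th percentile of non-cycling cells in the replication sum was 70.6 in WT and 67.8 in KO. Of the cells of low histone sum, 63 of 84 in WT and 140 of 177 in KO had a mitotic sum under 50. How many of these were high in replication genes was not counted. The ratios above therefore mix cell cycle phase with members that carried few cell cycle transcripts, and the 2 were not told apart.

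Across all genes, 6208 had at least 100 UMIs over cycling and non-cycling stroma in each library. Of these, 219 (3.53%) were at least 2-fold higher in cycling cells in both libraries and 2 (0.0322%) at least 2-fold lower. In WT alone 247 of 6247 genes (3.95%) were higher and 22 (0.352%) lower, and in KO alone 265 of 6889 (3.85%) were higher and 18 (0.261%) lower. The median gene had a log2 ratio of -0.01 in each library. The rule chose the cells on genes of the same pathway, so these counts describe the chosen cells and are no support for their division.

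The 15 highest ratios, taken by the library nearer to 0, belonged to 11 genes mostly of mitosis or its control and to 4 histone genes. Nusap1, which binds spindle microtubules, had 615 UMIs in WT and 710 in KO members, levels of 3.27 and 3.08, against 7 UMIs and levels of 0.0183 and 0.0153 in non-cycling cells. It was detected in 92 of 160 WT and 161 of 309 KO members, and in 7 and 5 non-cycling cells. Its log2 ratio was 7.48 in WT (6.43 to 8.80) and 7.66 in KO (6.61 to 8.98). Aurkb, the kinase of the chromosomal passenger complex, had levels of 1.18 and 1.02 against 1 UMI in WT and 4 UMIs in KO non-cycling cells, for ratios of 8.82 (6.32 to 14.13) and 6.87 (5.49 to 8.75). Prc1, which bundles the midzone of the spindle, had levels of 3.27 and 3.41 against 0.0497 and 0.0327, ratios of 6.04 and 6.70.

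Ube2c, the ubiquitin-conjugating enzyme of the anaphase-promoting complex, had levels of 4.66 in WT and 4.21 in KO members against 0.0969 and 0.0697. Ccna2, the cyclin of S phase and G2, had 1.38 and 1.23 against 0.0314 and 0.0240. Both were found in few non-cycling cells: Ube2c in 31 of 425 in WT and 30 of 777 in KO, and Ccna2 in 11 in each. Casc5, the kinetochore scaffold also called Knl1, had ratios of 6.32 and 5.66. Aspm, a spindle pole protein, had 5.55 and 5.62, and Hmmr, a spindle assembly factor, 5.93 and 5.50. Depdc1a had levels of 0.643 and 0.561 against 2 and 3 UMIs, with ratios of 6.94 (5.06 to 10.00) and 6.42 (4.84 to 8.72). Mxd3, a MAX dimerization protein of S phase, had ratios of 6.98 and 5.59, and Fam64a had 6.24 and 5.93.

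Hist1h2ap had levels of 6.63 in WT and 6.35 in KO members against 0.0890 and 0.107. Hist1h2ae had 4.24 and 4.49 against 0.0628 and 0.0763, and Hist1h3c 2.16 and 2.05 against 0.0236 and 0.0196. Hist1h2an had 0.909 and 0.704 against 0.0131 and 0.0174. Histone genes of a cluster are near copies of each other, so reads may be divided among them and single members are uncertain.

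**Figure D3:**
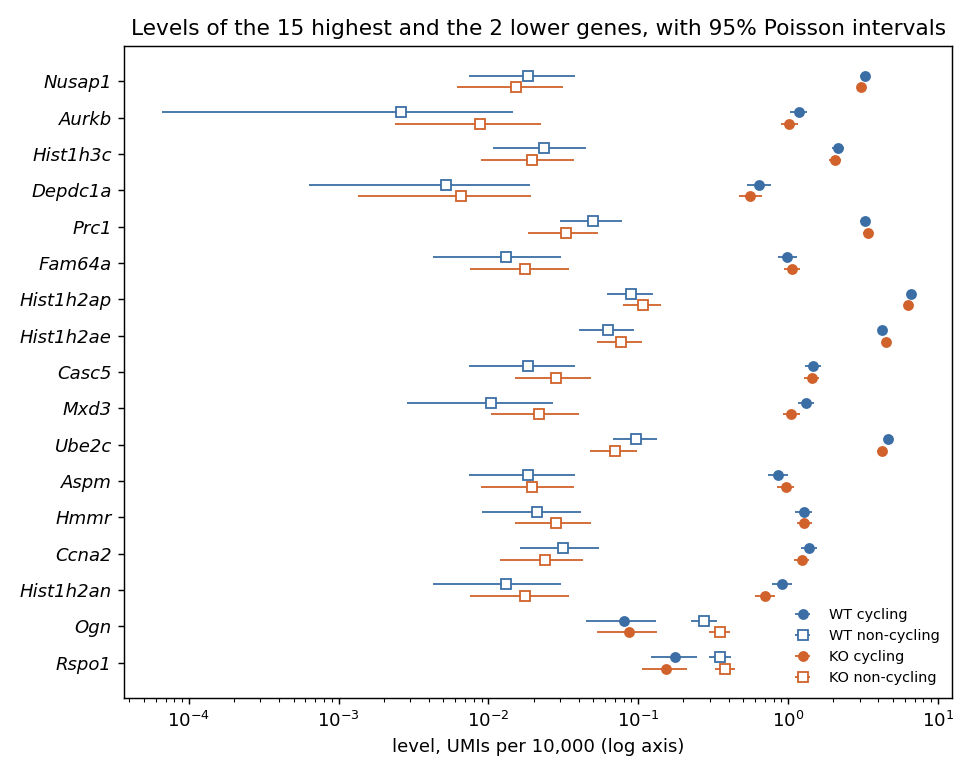
Levels (UMIs per 10000, log axis) of the 15 highest genes and of Ogn and Rspo1 in cycling (filled) and non-cycling stroma (open) of WT and KO, with exact Poisson 95% intervals as bars. WT and KO points lie close together in cycling cells, as for Nusap1 at 3.27 and 3.08.

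CCAAT matches stood in the 250 bases before the start of 118 of the 183 higher genes that had a RefSeq window (64.5%), against 40.9% of the 5018 tested genes with a window and 37.5% of all 27025 genes. TTTGAA stood in 29.5% of the higher genes, against 12.7% and 18.3%. A window with CCAAT and either TTTGAA or TTCGAA was found for 45 higher genes (24.6%), against 5.70% of tested genes and 7.0% of all. The longer letters were rare. TTTGGCGC stood in 3.83% of the higher genes (1.34% and 0.485%), TTTCCCGC in 3.28% (2.37% and 1.03%) and TTCGAA in 3.28% (2.27% and 1.55%). Over all 32851 windows of this length, 33.8% held CCAAT and 16% held TTTGAA.

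The tested genes of the mitotic lists all moved the same way. All 22 tested genes of the list of mitotic kinases, cyclins and their partners (29 listed) were past 2-fold higher in both libraries, with a median log2 ratio of 4.22 in WT and 4.40 in KO. Birc5, a passenger complex subunit, had levels of 4.78 and 4.41 against 0.243 and 0.227. The smallest ratios among these 22 were those of Cks1b, 1.35 and 1.49, and of Ube2s, 1.38 and 1.30, with Ube2s levels of 5.38 and 5.46 against 2.07 and 2.23. All 30 tested genes of the spindle and kinetochore (34 listed) were higher too, with a median of 4.08 in each library. Cenpf, a kinetochore protein, had levels of 3.45 and 4.07 against 0.246 and 0.294, and Ckap5, a microtubule polymerase, the smallest ratios, 1.52 and 1.30. Both lists share genes with the pathway of the rule, and 3.53% of all tested genes met the same limit. The minimum of 100 UMIs was summed over cycling and non-cycling cells. A gene such as Aurkb, with 222 and 1 UMIs in WT, reached it only through the cycling cells. For such genes the direction was in part set by the minimum, so the counts of 22 and 30 only describe the selected cells.

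Genes that compact and hold chromosomes came next. In the list of condensin, cohesion and chromatin proteins, 10 of 13 tested genes were higher, with medians of 2.72 in WT and 2.61 in KO. Hmgb2, a DNA-bending protein, had levels of 21.3 and 19.8 against 2.49 and 2.52. Its relative Hmgb1 had 33.9 and 34.4 against 18.4 and 18.6, a ratio of 0.88 and 0.89 that did not reach 2-fold. Smc2, a core condensin subunit, had 4.03 and 3.84 against 0.610 and 0.654, and Sgol1, which protects cohesin at centromeres, had ratios of 4.14 and 3.75.

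Replication genes showed smaller ratios from a higher floor. Of 33 tested genes of the replication fork, 18 were higher in both libraries, with medians of 1.13 in WT and 1.20 in KO. Lig1, the ligase that joins Okazaki fragments, had levels of 3.04 and 3.02 against 0.832 and 0.907. Dbf4, the activator of the origin-firing kinase, had ratios of 3.00 and 3.03 and Clspn, a fork checkpoint mediator, 2.96 and 3.29. The helicase subunits Mcm2 and Mcm6 did not reach 2-fold, with ratios of 0.28 and 0.52 and of 0.59 and 0.60, nor did Rfc1 of the clamp loader at 0.51 and 0.64. Non-cycling cells therefore held these transcripts at levels within 2-fold of members.

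Nucleotide supply was higher in 6 of 7 tested genes, with medians of 2.25 and 2.41. Tk1, thymidine kinase, had levels of 1.37 and 1.32 against 0.0995 and 0.0937. Rrm2 had 2.07 and 1.53 against 0.236 and 0.187, and Tyms, thymidylate synthase, 2.94 in each against 0.618 and 0.554. Dctpp1, which clears modified nucleotides, had ratios of 1.01 and 0.79 and passed in WT alone.

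Chromatin replication was higher in 14 of 16 tested genes, with medians of 1.95 and 1.92. H2afz, the variant histone H2A.Z, whose transcript is polyadenylated, had levels of 19.7 and 19 against 5.42 and 5.25, and H2afv had 9.83 and 9.77 against 4.44 and 4.19. Nasp, a histone chaperone, had ratios of 1.06 and 0.93, and Cdca7, a chromatin factor, 0.36 and 0.26. Of 9 tested genes of homologous recombination, 6 were higher, among them Atad2 at 2.19 and 2.21.

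Regulators of the cycle were mostly under the UMI minimum or within 2-fold. Of 19 E2F, retinoblastoma-family and MuvB genes, 6 were tested and only E2f1, the E2F factor of S phase entry, was higher in both libraries, at 1.12 and 1.28. Mybl2 and Foxm1 had levels under 0.25 in members and were not tested. Among 6 tested G1 cyclins and kinases, Ccne1 was higher at 1.85 and 2.08 and Ccne2 at 2.45 and 2.20; both are partners of CDK2 at the start of S phase. Ccnd2 and Ccnd3, which act earlier in G1, had ratios of -0.44 and -0.67 and of -0.18 and -0.13, and Cdk4 0.20 and 0.21. Of 4 tested CDK inhibitors, Cdkn2d was higher at 2.26 and 2.31. Cdkn1c, the inhibitor p57, had levels of 3.98 and 4.13 in members against 5.18 and 4.63, and Cdkn1b, the inhibitor p27, ratios of 0.74 and 0.72. Among 9 tested antiproliferative genes 0 passed 2-fold in either direction, with medians of -0.10 and 0.03, and Btg1 had 3.06 and 2.60 against 3.27 and 2.64. Of 10 tested genes of ribosome biogenesis 0 passed, with medians of 0.06 and 0.12.

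**Figure D4:**
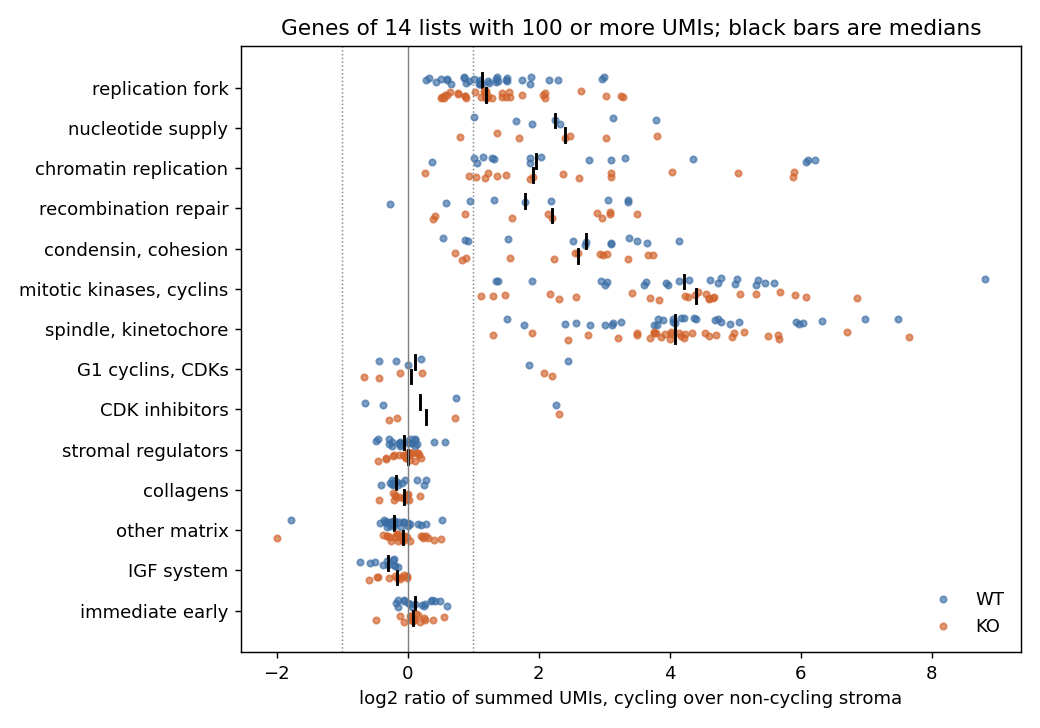
Log2 ratio of cycling over non-cycling stroma for each tested gene of 14 lists (horizontal axis), with WT and KO points in separate colours, list medians as black bars and 2-fold marked by dotted lines. Mitotic and spindle lists centre at 4.08 to 4.40, replication fork genes at 1.13 and 1.20, and stromal, collagen and matrix lists between -0.20 and 0.00.

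Stromal genes differed little between cycling and non-cycling cells. Of 22 tested identity genes 0 passed 2-fold, with medians of -0.06 in WT and 0.00 in KO. Dlk1, a Notch-family ligand-like protein of mesenchymal precursors, had levels of 7.23 and 5.94 in members against 7.21 and 5.79. Tshz2, a zinc finger factor, had 4.42 and 4.61 against 4.78 and 4.87, Nr2f2 ratios of 0.11 and 0.20, and Maf -0.48 and -0.45. Of 14 tested collagens 0 passed, with medians of -0.18 and -0.05. Col3a1 had 12.2 and 13.2 against 13.5 in each library, and Col1a1 8.02 and 7.03 against 9.37 and 8.08; both were part of the rule.

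Of 24 tested genes of the other matrix, 1 passed 2-fold lower, and the medians were -0.20 and -0.08. That gene was Ogn, which encodes the small proteoglycan osteoglycin. Ogn had 15 UMIs in WT and 20 in KO members, levels of 0.0797 and 0.0869, against 105 and 160 UMIs and levels of 0.275 and 0.349 in non-cycling cells. Its log2 ratio was -1.79 in WT (-2.67 to -1.0) and -2.00 in KO (-2.75 to -1.33). Rspo1, a secreted enhancer of WNT signalling that acts in ovary determination, was the other gene lower in both libraries. Rspo1 had levels of 0.175 and 0.152 against 0.353 and 0.379, ratios of -1.01 (-1.61 to -0.45) and -1.32 (-1.89 to -0.79). The abundant matrix genes Ptn, Mdk and Sparc had ratios between -0.23 and -0.07 in both libraries.

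The 11 tested genes of the insulin-like growth factor pathway had ratios from -0.73 to -0.15 in WT and from -0.59 to -0.01 in KO. Of them 0 passed 2-fold. The medians were -0.30 in WT and -0.17 in KO, beside -0.01 over all genes. Igfbp5, a secreted binding protein, had levels of 15.0 and 16.7 in members against 22.3 and 22.8, ratios of -0.57 and -0.45. Igfbp6 had ratios of -0.73 and -0.59 and Igfbp4 -0.38 and -0.47. The ligands Igf1 and Igf2 had -0.22 and -0.17 and -0.31 and -0.20, and the imprinted RNA H19 had -0.51 and -0.28. Hes1, a target of Notch, had levels of 7.07 and 6.55 against 6.0 and 4.86 and, with 3 other tested Notch pathway genes, stayed within 2-fold. Of 3 tested genes of the hedgehog response, 2 of PDGF signalling and 4 of smooth muscle, 0 passed; Acta2 had 3.30 and 3.51 against 3.36 and 3.27. Steroidogenic genes were not tested for want of UMIs, and Cyp17a1 and Insl3 had 0 UMIs in members. Of 6 genes known to respond to GR, 3 were tested in this contrast of cycling with non-cycling cells and 0 passed. Fkbp5 had ratios of -0.37 and -0.06, Tsc22d3 -0.11 and -0.17 and Sgk1 -0.22 and -0.40. In the comparison of KO with WT cycling cells described below, 2 of the 6 were tested. Their log2 ratios were -0.05 and 0.02, and 0 passed the limit used there.

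The same contrast was made in the ovarian epithelium, where 69 WT and 189 KO cells were past the limit and 259 and 622 were not. Of 6001 genes tested there, 180 (3%) were at least 2-fold higher in both libraries and 7 (0.117%) lower. Among 5341 genes tested in both tissues, 184 were higher in stroma, 173 in epithelium and 164 in both, which is 89.1% of the stromal and 94.8% of the epithelial genes. Both sets of cells were chosen on the same 3 genes of the same libraries, so this overlap is in part set by the rule. Of the 20 genes past the limit in stroma alone, 16 were at least 1.5-fold higher in epithelium in both libraries. Among them Pcna, the sliding clamp, had ratios of 1.51 and 1.5 in stroma and 0.81 and 0.89 in epithelium, and Slbp, which binds histone stem loops, 1.28 and 1.04 against 0.73 and 0.64; these genes were chosen after their values were seen. Of the genes lower in cycling cells, 1 in stroma and 4 in epithelium, 0 were shared.

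KO and WT were then compared within cycling stroma. A gene was counted when the natural log of its level plus 1 differed by 0.25 or more over genes that had 100 UMIs or more in the pair of libraries. Of 5224 genes, 7 (0.134%) were higher in KO and 10 (0.191%) lower, and the median log2 ratio was 0.00. Nr3c1 was among the 5224 and missed the limit, at -0.198 on the natural log scale and a log2 ratio of -1.48. Genes at low levels can hardly reach this limit, so the counts can miss large ratios among them. In non-cycling stroma 9 of 7438 genes (0.121%) were higher and 11 (0.148%) lower. In all of these differences, genotype cannot be told apart from the pool of embryos, its sorting and its capture.

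Sums over the cell cycle lists were close in the libraries. Summed over the list, the log2 ratio of KO over WT in cycling stroma was -0.03 for the replication fork (-0.08 to 0.02), -0.07 for mitotic kinases and cyclins (-0.11 to -0.02) and 0.01 for spindle and kinetochore genes (-0.03 to 0.05). It was -0.06 for chromatin replication (-0.09 to -0.02), -0.04 for condensin and cohesion (-0.07 to -0.0031) and -0.12 for nucleotide supply (-0.20 to -0.04), the largest of these. The 7 tested nucleotide supply genes had ratios from -0.43 to -0.00043, with a median of -0.10 beside -0.0015 over all genes. Top2a had a ratio of -0.07 (-0.17 to 0.03), Mki67 0.08 (-0.07 to 0.23) and Cdk1 -0.03 (-0.19 to 0.13). Of all the tested replication, nucleotide, mitotic, spindle and condensin genes, 0 passed the limit in either direction, a limit that Nr3c1 also missed.

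Stmn1, which encodes the microtubule-destabilizing protein stathmin, was higher in KO. It had 724 UMIs in WT and 1686 in KO cycling cells, levels of 3.85 and 7.33, a log2 ratio of 0.93 (0.80 to 1.06). In non-cycling cells its levels were 1.16 and 1.92, a ratio of 0.72. It was also higher in cycling than in non-cycling cells of both libraries. Its WT and KO levels were 0.468 and 0.836 in germ cells and 0.742 and 1.28 in pregranulosa cells, so the shift was not particular to stroma. Gng13, a G protein gamma subunit, had 23 UMIs in WT and 121 in KO, a ratio of 2.11 (1.45 to 2.82). Of the KO UMIs 80 (66.1%) lay in 3 cells, each called a doublet, and without called doublets the ratio was 0.36. Pregranulosa cells had Gng13 levels of 14.4 in WT and 16.8 in KO.

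The other 5 genes higher in KO were Gm8730, Gm10709, Gm10260, Gm10076 and Rps26-ps1. All are predicted genes or pseudogenes whose reads may belong to a copy elsewhere, so they are uncertain. Gm8730 had levels of 0.568 and 2.33, a ratio of 2.04 in cycling and in non-cycling cells alike. The ratios of the other 4 in cycling cells lay between 0.58 and 1.14.

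Penk, the precursor of enkephalin peptides, was lower in KO cycling cells. It had 90 UMIs in 27 WT cells and 33 in 26 KO cells, levels of 0.478 and 0.143, a ratio of -1.74 (-2.36 to -1.15). In non-cycling cells the ratio was -0.63. Mgp, the matrix Gla protein that inhibits calcification, had levels of 5.40 and 3.52, a ratio of -0.62 (-0.75 to -0.48), and -0.43 in non-cycling cells. Tcf21 had 4.50 and 3.15, a ratio of -0.51 (-0.66 to -0.37), and -0.20 in non-cycling cells; the rule used it to choose cells in both libraries.

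Cwc22, a spliceosome-associated protein, had levels of 1.30 and 0.634, a ratio of -1.03 (-1.34 to -0.73), and -0.89 in non-cycling cells. Its WT and KO levels were 1.54 and 0.669 in germ cells and 1.04 and 0.507 in pregranulosa cells, so the shift was not particular to stroma. Wdr89 had -0.58 and -0.57 in the same order. Hist1h2ab had -0.94 in cycling cells, from levels of 1.81 and 0.939, and Gm8797 -0.58; both are uncertain as near copies of other genes. Zfp710, a zinc finger gene, had -2.49 (-3.19 to -1.84), but 99 of its 110 WT UMIs lay in 1 cell. Without that cell the ratio was 0.83, so the direction of Zfp710 is that of a single cell. Jun and Rpl29 completed the 10 lower genes.

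Immediate early genes respond within minutes to growth factors and to handling of cells. Of 15 tested in cycling cells, 13 had a ratio of KO over WT below 0, with a median of -0.31 beside 0.00 over all genes. Jun, the AP-1 subunit, had levels of 5.61 and 3.97, a ratio of -0.50, and was the 1 gene of the list past the limit. Fos had 5.21 and 4.61, a ratio of -0.18. Summed over the list, the ratio was -0.28 in cycling and -0.24 in non-cycling cells. Between cycling and non-cycling cells 0 of 17 tested genes passed 2-fold, with medians of 0.11 and 0.08. This list had been written after some of its members were seen in earlier results of these data.

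**Figure D5:**
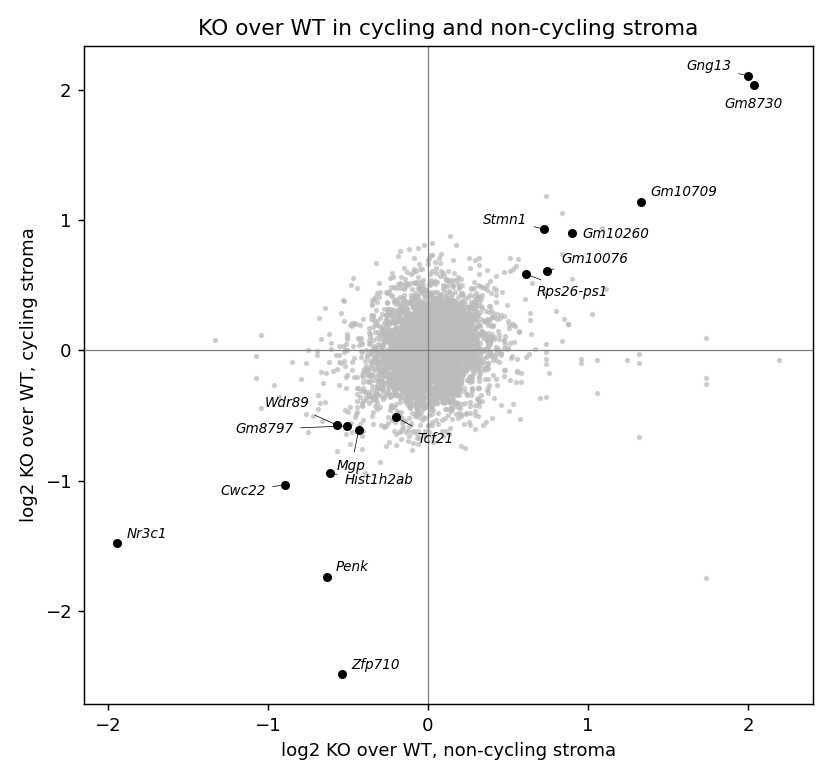
Log2 ratio of KO over WT in cycling stroma (vertical axis) against that in non-cycling stroma (horizontal axis), 1 grey point per gene tested in cycling stroma, with the named genes and Nr3c1 in black. Stmn1 (0.93 and 0.72) and Cwc22 (-1.03 and -0.89) lie near the diagonal, while Zfp710 (-2.49 and -0.54) lies away from it.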

How the data were processed

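Transcripts were counted by the authors in 2 libraries of E15.5 ovary cells (10X Chromium 3-prime chemistry), 1 per genotype. The values as deposited are whole UMI counts for each gene in each barcode, made with Cell Ranger 3.0.2 per the file headers, for 27998 genes with no normalization. The submitters' processing notes also name Seurat 3.2.3 and mm10. How reads that match several genes were counted is not given in the sources used here.

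Cells were filtered and chosen by the limits given with the results. UMIs were summed over the cells of each class and library and expressed per 10000 (Python 3.11.15, numpy 2.4.6, scipy 1.17.1, pandas 2.3.3). Shares carry Clopper-Pearson intervals, levels exact Poisson intervals and ratios conditional binomial intervals, and differences of shares Newcombe intervals built on the former, all at 95%. With 1 library per group, no test was run and no p-value is given. Called doublets (Scrublet in scanpy 1.11.5, expected rate 8%) stayed in and were left out as an alternative; it marked 3.26% of WT and 7.71% of KO cells.

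Genes were named by rule. They are the 15 highest and up to 10 lowest of those past 2-fold the same way in both libraries, the 8 largest in each direction past the limit between KO and WT, the genes of the rule with Nr3c1, and members of 30 gene lists chosen by extreme ratio or by UMIs. The members, the lists and the rule were chosen with earlier results of these data known. The counting steps were tested on simulated data. Alternatives changed the cells kept, the cycling limit, the UMI minimum, the scaling and the size limit. No columns of other samples were found.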

Additional observations from a re-analysis of the deposited data

Results flagged for a closer look

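Both genes that stood out did so because the ratio of KO over WT had opposite signs in cycling and non-cycling stroma with counting intervals on different sides of 0. Both are markers of pregranulosa cells. Wnt4, a secreted signal of ovary development, had a log2 ratio of 0.25 in cycling stroma and -0.12 in non-cycling stroma, from levels of 2.79 in WT and 3.32 in KO and of 3.74 and 3.43. Kctd14 had 0.24 in cycling stroma and -0.30 in non-cycling stroma, from levels of 1.29 and 1.53 and of 2.20 and 1.79. With 1 library of each genotype, the difference between the cell classes was not tested. How often counting error alone gives such a pair was not tested either.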

How the results depend on the processing

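With a cycling sum of 4 or more, the cycling share was 19.3% in WT and 19.2% in KO, with a sum of 1 or more 45.0% and 41.8%, and with 5 other mitotic genes 21.2% and 23.6%. Members with at least 2 UMIs of the rule's genes (chosen after seeing the data, as was leaving out the cell with most UMIs of a gene) were 27% of WT and 23.7% of KO stroma, which turned the order. The 219 genes higher in cycling stroma became 28 of 1632 tested when cells were thinned and chosen again (380 WT and 704 KO stromal cells), all 28 shared, and the Nusap1 ratio in WT became 4.87. They became 395 at 20 UMIs, 410 with no minimum and 334 at 1.5-fold, and were 206 to 228 otherwise. The 2 lower genes became 0 after thinning, 15 at a sum of 4, 1 against non-cycling cells with 0 UMIs of the rule's genes, 4 with members of 2 UMIs, 13 at 20 UMIs, 16 with no minimum, 4 without mitochondrial, ribosomal and haemoglobin genes, 1 after centring, 6 at a natural log difference of 0.25 and 45 at 1.5-fold.

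For KO over WT, the 7 higher and 10 lower genes became 25 and 20 of 1452 tested after thinning, of which 6 and 5 were shared. With means over cells they became 4 and 17, of which 4 and 8 were shared. Higher genes became 2 and lower genes 0 at a natural log difference of 0.5. At 2-fold the lower genes became 5, of which 3 were shared. The cause of these moves was not tested. Zfp710 reversed to 0.31 after thinning, 0.62 at a sum of 4 and 0.83 without its 1 cell. Of the other values for single genes and lists, 684 moved within counting error and 113 beyond it. All 2220 values of the 111 list genes past 2-fold kept their sign.

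No paired analysis was possible because each group is 1 library and the labels give no replicate numbers. Depth limits low genes: Mybl2, Foxm1 and most E2F genes fell under the minimum, and 52 KO members rested on 1 UMI.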
